A study of Mus musculus with 96 samples.

Results

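The genes described here were 40 genes of glucose uptake, glycolysis, the fates of its products and the response to low oxygen, taken by gene symbol from a table of 15895 genes. All 40 were in the table, and no filter on low values was applied to them. They comprised 4 transporters of glucose and lactate, 6 enzymes from hexokinase to phosphofructokinase, 3 enzymes of fructose 2,6-bisphosphate, 9 enzymes from aldolase to pyruvate kinase, 2 lactate dehydrogenase subunits, 4 pyruvate dehydrogenase kinases, 4 pentose phosphate enzymes, Hif1a with 2 prolyl hydroxylases, and 5 further targets of hypoxia signalling.

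RNA was measured by sequencing of polyadenylated transcripts in primary mouse embryonic fibroblasts (MEFs) of CF-1 embryos at embryonic day 13. All cells were first held for 36 h in medium with 0.5% fetal calf serum (FCS), and serum was then raised to 20% at 0 h. The course was run as Cycle 1, with 64 libraries from -1 h to 38 h, and as Cycle 2, with 32 libraries from -1 h to 27 h. All were used here but the 12.5 h library of Cycle 1, since the 1 column of that hour names no Cycle. The libraries at -1 h and 0 h of each Cycle are called starved here, and they are the 4 control libraries. Every hour of a Cycle had 1 library, so replication came from the 29 hours between 1 h and 27 h that both Cycles sampled. The authors state that the Cycles do not reflect synchronised cells and may have begun at different moments. They aligned the Cycles by an offset for each gene, whereas here the Cycles were paired by labelled hour. The part of such a shift in the differences between the Cycles was not tested. The sources used here do not say how the cultures of the Cycles differed, so embryo, culture, day and sequencing run cannot be told apart from the Cycle.

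Glycolysis splits glucose into pyruvate in the cytosol, and growing fibroblasts pass much of that pyruvate to lactate, which leaves the cell through proton-coupled carriers. Several of its steps are run by more than one isozyme, each from its own gene. Hif1a, the oxygen-labile subunit of hypoxia-inducible factor, is marked for destruction by prolyl hydroxylases when oxygen is present. When it is stable it switches on glucose transporters, glycolytic enzymes, Vegfa and Bnip3, and serum factors are known to raise several of the same genes without hypoxia.

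The values are read counts over exons scaled to a common total per library and not divided by transcript length, so they are compared between libraries and not between genes. Reads recovered from the steps of the values ranged from 4352235 to 12551892 per library, with a median of 9375098. Fibroblast markers were abundant throughout, with a summed value of the 10 markers between 193801 and 569390. Summed values over the same libraries were 147 to 828 for 5 epithelial, 47.5 to 246 for 4 endothelial, 171 to 1079 for 5 immune and 39.5 to 107 for 3 neural markers. They were 329 to 1704 for 4 skeletal muscle markers. Of all these markers, Epcam, Pecam1, Cdh5, Elavl4, Myod1 and Myog were at 0 in 1 or more libraries. In RNA from a whole culture, fewer cells of a type and less RNA per cell cannot be told apart.

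The Cycles did not start alike for these genes. In starved cells 20 of the 40 members were higher in Cycle 2 than in Cycle 1 by at least 2-fold with an adjusted p under 0.05, against 4.22% of all genes. Only Pdk2 and Pdk4 were lower in Cycle 2 by that rule, against 5.55% of all genes. The test was limma on log2(value + 1) with Benjamini-Hochberg adjustment over all genes. It rests on 2 libraries against 2 that were taken 1 h apart. Its SE was taken over all windows of both Cycles, so movement of a gene within a window is part of it. The median difference over the members was 1.01 on the log2 scale, and over all genes it was -0.08. This comparison of the Cycles was chosen after the values were seen. Markers of cell types moved with it. From starved Cycle 1 to starved Cycle 2 the median summed value went from 557329 to 414409 for the fibroblast markers (Thy1 called higher and 1 marker lower), from 320.1 to 159 for the epithelial (2 lower), from 310.4 to 517 for the immune (none called), from 174 to 205 for the endothelial (Emcn higher) and from 97.6 to 74.4 for the neural markers (none called). The summed value of the skeletal muscle markers went from 836 to 1702 (Des higher and 2 lower). The part of all these markers in the result was not tested.

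Slc16a3, the carrier that exports lactate, had the largest starved difference. Its values were 308 and 292 in Cycle 1 and 1797 and 2020.0 in Cycle 2, a fold of 6.34 (log2 2.66 ± 0.28 SE, adjusted p = 4.09e-10). Bnip3, a mitochondrial protein of hypoxia-induced mitophagy, had 117 and 108 in Cycle 1 against 639 and 586 in Cycle 2, a 5.41-fold difference. Hk2, the inducible hexokinase that traps glucose as its phosphate, had 179 and 217 against 840.4 and 975, a 4.58-fold difference. Egln3, a prolyl hydroxylase that is itself a target of the factor it restrains, had 88.7 and 90.3 against 368 and 398. For each of these 4 genes the lower Cycle 2 library lay above the higher Cycle 1 library. They were taken for the size of their difference, so this adds no support. It also held for members that were not called, such as Pdk3 (416 and 373 against 498 and 443). The low-level gene Ankrd37, a short ankyrin-repeat protein gene induced by hypoxia, had 10.5 and 17.3 against 61.0 and 56.0, and its adjusted p was 0.032.

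The promoters of the 6 members with the largest starved difference are shown. All 6 are known to respond to low oxygen, and the list was drawn from glycolysis and hypoxia genes. The part of oxygen in the starved difference was not tested. Each line gives the 150 bases just before the transcription start in RefSeq (build GRCm38.p6), read 5′ to 3′ on the strand of the gene, with capitals marking 3 motifs on either strand. The first 2, ACGTG and also GCGTG, are forms of the core bound by hypoxia-inducible factor. The third is CACGTG, which contains the first and is the E-box bound by Myc and other helix-loop-helix factors.
Slc16a3: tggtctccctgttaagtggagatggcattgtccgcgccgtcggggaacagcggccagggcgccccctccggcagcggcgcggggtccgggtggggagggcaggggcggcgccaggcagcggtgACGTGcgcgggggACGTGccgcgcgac
Bnip3: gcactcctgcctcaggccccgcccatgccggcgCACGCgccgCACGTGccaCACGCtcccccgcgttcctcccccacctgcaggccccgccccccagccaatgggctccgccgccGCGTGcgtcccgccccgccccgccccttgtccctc
Hk2: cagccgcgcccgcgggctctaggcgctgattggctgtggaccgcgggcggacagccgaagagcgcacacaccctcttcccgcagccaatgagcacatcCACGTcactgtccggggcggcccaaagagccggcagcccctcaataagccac
Egln3: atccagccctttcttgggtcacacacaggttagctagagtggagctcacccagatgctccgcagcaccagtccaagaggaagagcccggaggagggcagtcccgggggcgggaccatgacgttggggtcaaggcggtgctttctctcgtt
Ankrd37: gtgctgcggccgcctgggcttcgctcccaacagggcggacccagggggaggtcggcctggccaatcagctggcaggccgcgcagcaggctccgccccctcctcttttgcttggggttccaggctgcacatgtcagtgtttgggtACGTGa
Pgk1: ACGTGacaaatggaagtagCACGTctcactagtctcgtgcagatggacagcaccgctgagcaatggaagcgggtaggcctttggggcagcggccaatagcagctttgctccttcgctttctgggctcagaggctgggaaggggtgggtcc

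The window of Slc16a3 is chr11:120948917-120949066 (+), that of Bnip3 chr7:138909507-138909656 (-), that of Hk2 chr6:82774455-82774604 (-), that of Egln3 chr12:54203875-54204024 (-), that of Ankrd37 chr8:45999851-46000000 (-) and that of Pgk1 chrX:106186950-106187099 (+). The windows of 5 of these genes held at least 1 match, and the Bnip3 window held 3 matches of GCGTG beside 1 of CACGTG, which reads as ACGTG on both strands. The Egln3 window held none, which says only that these letters are not in this stretch. Promoters were found for 39 of the 40 members, 57 sequences in all, some of which belong to the same gene and overlap. ACGTG was present in 20 of these 57 (35.1%) and in 11.2% of all 32851 promoters. GCGTG was in 50.9% and 20.5%, and CACGTG in 12.3% and 4.30%. The members were chosen as genes of glycolysis and of the response to low oxygen, so higher shares may follow from that choice. These shares are descriptions, without matching for base composition.

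By role, the starved difference took in 7 of the 9 enzymes from aldolase to pyruvate kinase, all higher in Cycle 2. These were Aldoa (2.14-fold), Tpi1 (2.77-fold), Gapdh (2.28-fold), Pgk1 (3.92-fold), Pgam1 (2.89-fold), Eno1 (3.04-fold) and Pkm (2.43-fold). Ldha, the muscle-type subunit of lactate dehydrogenase, had 2244 and 1974 in Cycle 1 against 6733 and 6891 in Cycle 2, a 3.23-fold difference (adjusted p = 1.77e-11). Among the early enzymes Pfkl and Pfkp were higher by 2.97-fold and 2.10-fold, beside Hk2, and Pfkfb3, whose product drives phosphofructokinase, was higher by 2.77-fold. The glucose transporter gene Slc2a1 was higher by 2.91-fold, with 705 and 869 against 2228 and 2334. Hif1a, Egln1 and Egln3 were all higher, Hif1a with 3902 and 4310.0 against 8588 and 8891. Some of these calls rest on 1 library. Without the -1 h library of Cycle 2 the difference of Gapdh was 0.89 and not called, without its 0 h library that of Pdk1 was 1.21 and not called, and without the 0 h library of Cycle 1 that of Egln1 was 0.97. Gapdh was also lost without either library of Cycle 1 (1.15 and 1.22), and Ankrd37 without any 1 of the 4 libraries (1.70 to 2.37).

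The enzymes of the pentose phosphate path, which branches off glucose 6-phosphate to make NADPH and ribose, started close to each other in the Cycles. The starved difference was not past the threshold for any of the 4 genes, and their values ran from 0.01 (Tkt, SE 0.13) to 0.21 (Pgd, SE 0.18) on the log2 scale. Pdk2 and Pdk4, kinases that inhibit pyruvate dehydrogenase and so hold back the conversion of pyruvate to acetyl-CoA, ran the other way from the glycolytic enzymes. Pdk2 had 221 and 189.6 in Cycle 1 against 53.4 and 70.9 in Cycle 2 (log2 -1.72 ± 0.39 SE, adjusted p = 0.00089), and Pdk4 had 158 and 135 against 49.6 and 51.9 (log2 -1.51 ± 0.40 SE, adjusted p = 0.0045). Both kinases are abundant in muscle, and of the 4 skeletal muscle markers Myog and Ttn were also lower in starved Cycle 2, Des was higher and Myod1 was not called. The summed value of those markers was 771 to 900.3 in starved Cycle 1 and 1700.0 to 1704 in starved Cycle 2, and the part of muscle cells in the result was not tested. Without the -1 h library of Cycle 1 the difference of Pdk4 was -1.39 and no longer called.

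After serum the levels in the Cycles drew together. Between 1 h and 3 h 10 members were still higher in Cycle 2 (4.86% of all genes), among them Slc16a3 (log2 2.22 ± 0.18 SE), Bnip3 (2.19 ± 0.25), Pdk1 (1.74 ± 0.22) and Ldha (1.26 ± 0.10). Between 4 h and 10 h Aldoc was the one member called (3.55%), by 1.10 ± 0.24, and with log2(value + 8) its difference was 0.83 and not called. In the 11 to 18 h window and in the 19 to 27 h window no member was called higher, while 2.25% and 2.39% of all genes were. Without a minimum fold, 11 and 17 of the 40 members differed in those 2 windows at an adjusted p under 0.05 in limma. At the adjusted p alone 6 members were higher in Cycle 2 at 11 to 18 h (11.1% of all genes) and 5 lower (12.5%), and 5 were higher at 19 to 27 h (15.1%) and 12 lower (17.9%). The members' largest difference was that of Eno2 at 11 to 18 h, 1.91-fold higher in Cycle 2 (log2 0.93 ± 0.14 SE, adjusted p = 1.43e-06). At 19 to 27 h it was that of Hif1a, 1.81-fold higher in Cycle 2 (log2 0.85 ± 0.12 SE, adjusted p = 1.28e-07).

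**Figure D1:**
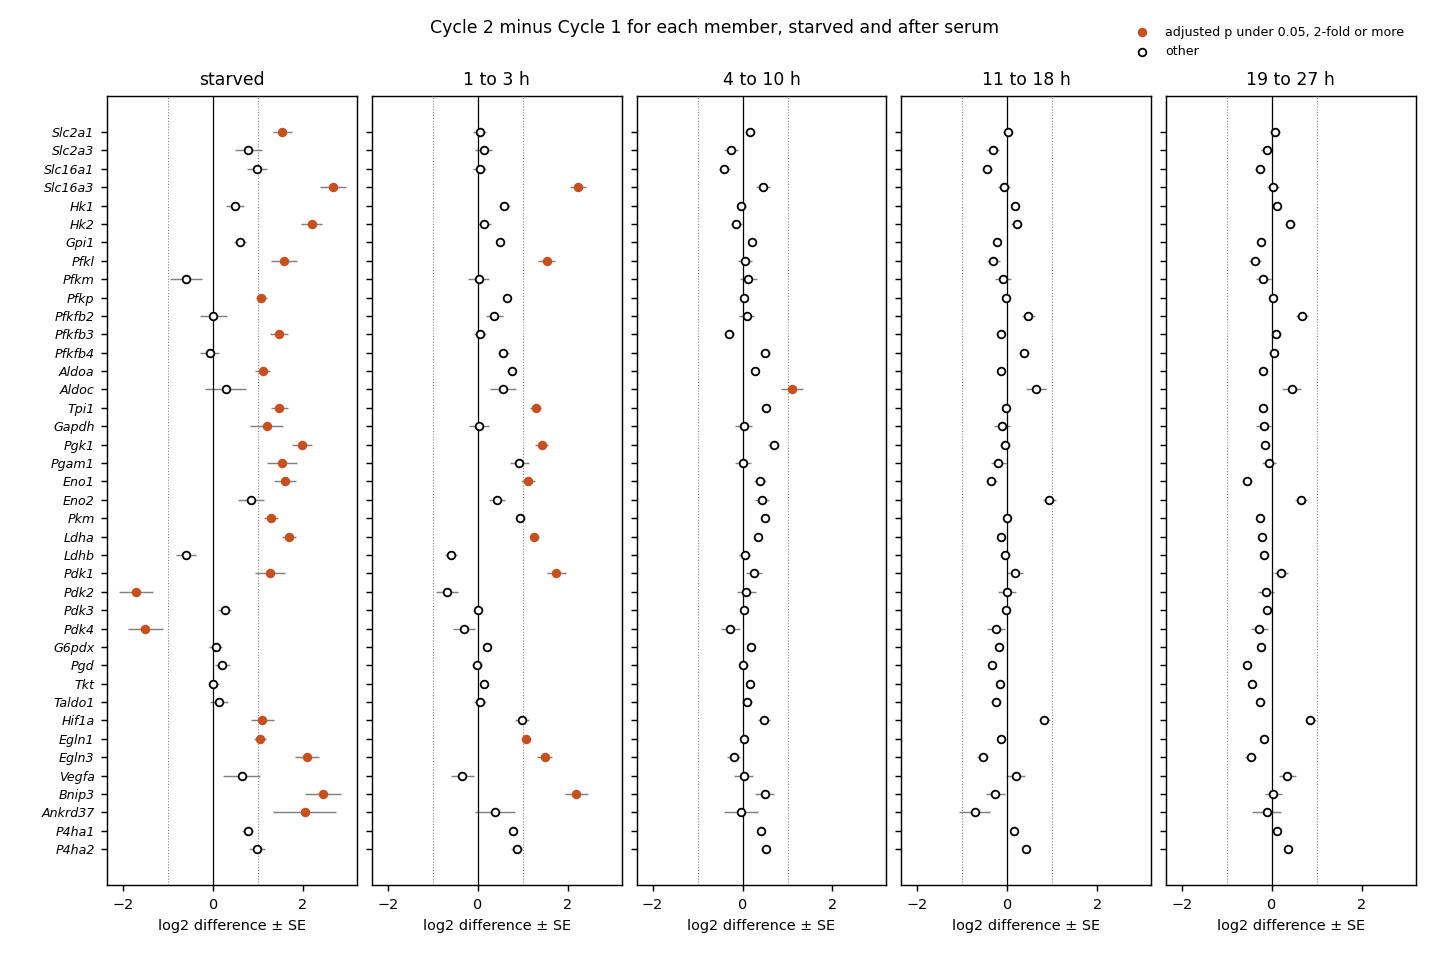
Difference of Cycle 2 from Cycle 1 for the 40 members (rows, in the order of their roles), as log2 with its SE (x axis), in starved libraries and in 4 windows after serum. Filled points passed an adjusted p of 0.05 and a 2-fold difference. They number 22 in starved cells, 10 at 1 to 3 h, 1 at 4 to 10 h and 0 in both later windows.

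Hour by hour the same course was seen without any test. At 0 h 23 of the 40 members differed at least 2-fold between the Cycles (17.3% of all genes), and at 1 h 15 did (17.0%). At 3 h 5 members differed that much (14.6%) and at 6 h 1 (15.7%). At 7 h none did, when 16.5% of all genes differed that much. The Cycle 2 library at 7 h had 4521531 recovered reads, against a median of 9375098. The part of depth in that share was not tested. At 9 h 1 member differed that much, against 9.86% of all genes. From 7 h on, the number over 21 shared hours lay between 0 and 4 (7.69% to 17.8% of all genes). The median size of the difference over the members was 1.09 at 0 h and 0.20 at 7 h on the log2 scale, while over all genes it was 0.39 and 0.35. At 9 h it was 0.17 over the members and 0.24 over all genes.

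The change after serum differed between the Cycles as well. The change from starved to a later window differed between the Cycles for 3 members at 1 to 3 h, Slc2a1, Hk2 and Pfkfb3 (0.686% of all genes), 16 at 4 to 10 h (5.48%), 23 at 11 to 18 h (8.90%) and 22 at 19 to 27 h (9.69%), by the interaction term of the same model. This test shares its starved libraries with the comparison above and is not independent of it. In Cycle 1 alone 11 members rose by 19 to 27 h (11.3% of all genes rose) and 7 fell (23.8%). In Cycle 2 alone 1 rose (3.64%) and 13 fell (11.4%). At 1 to 3 h the counts were 7 rises (6.20%) and 4 falls (16.4%) in Cycle 1, and 2 rises (3.79%) and no fall (5.73%) in Cycle 2.

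In Cycle 1 Ldha went from 2244 and 1974 in starved cells to 5604, 6301 and 7543 (lowest, median and highest of the 9 libraries from 19 h to 27 h), a log2 change of 1.62 ± 0.16 SE. In Cycle 2 it went from 6733 and 6891 to 5118, 5651 and 5947, a log2 change of -0.29 ± 0.09 SE. Starved and late libraries did not overlap in either Cycle, and the late ranges of the Cycles did overlap. Pkm, the pyruvate kinase of proliferating cells, rose by 1.75 ± 0.16 in Cycle 1 and differed by 0.21 ± 0.08 in Cycle 2. Slc16a3 rose by 1.26 ± 0.26 in Cycle 1 and fell by 1.37 ± 0.17 in Cycle 2, and Egln3 rose by 1.10 ± 0.22 and fell by 1.46 ± 0.18.

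**Figure D2:**
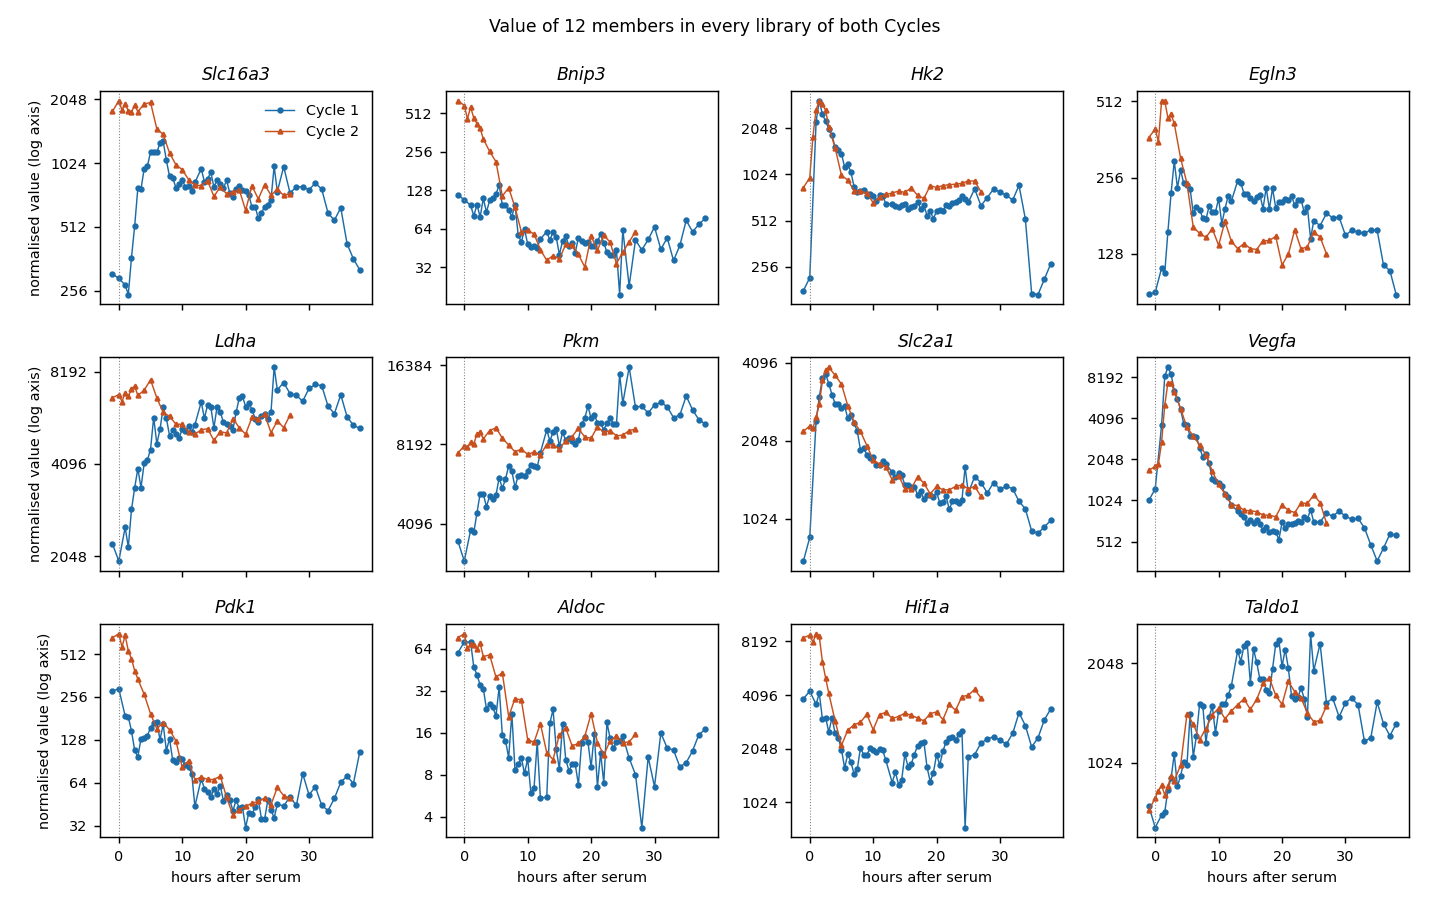
Normalised value (y axis, log scale) of 12 members against hours after serum (x axis) in every library of Cycle 1 (circles) and Cycle 2 (triangles), with a dotted line at the addition of serum. Slc16a3, Bnip3 and Ldha start apart and meet by about 10 h, and Pkm later, whereas Taldo1 starts together. Hk2 peaks at 3103 in Cycle 1 and 3076 in Cycle 2, and Vegfa at 9728 and 7480.5.

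Over both Cycles together, with the Cycle as a block, 14 members changed in 1 or more windows and 26 did not. Of the members, 3 rose at 1 to 3 h (5.30% of all genes) and none fell (11.8%). At 4 to 10 h 2 rose (7.28%) and 7 fell (17.9%). At 11 to 18 h 2 rose (6.81%) and 7 fell (16.8%), and at 19 to 27 h 3 rose (6.66%) and 7 fell (18.7%). From 4 h on these counts were close to the share of all genes, and the windows share their 4 starved libraries. Without a minimum fold 14, 24, 27 and 27 of the members had an adjusted p under 0.05, against 53.4%, 63.9%, 62.8% and 66.7% of all genes. The fibroblast markers fell as well, from the starved sums above to between 193801 and 206416 in Cycle 1 and between 199784 and 234674 in Cycle 2 from 19 h to 27 h, and their part in the changes was not tested. The median change of all genes was -0.26 at 1 to 3 h, and TMM factors moved it by 0.21, so the changes are given beside it. With TMM the rises were 5 of 11 called members at 19 to 27 h, with Pkm and Pfkfb4 added, in place of 3 of 10. Over all genes TMM took the share of rises among calls at 1 to 3 h from 31.1% to 49.9%.

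Among the transporters Slc2a1, the main glucose carrier of fibroblasts (mm9 chr4:118781316-118809935, plus strand), rose at 1 to 3 h by 2.42-fold (log2 1.27 ± 0.16 SE, adjusted p = 4.1e-08). In Cycle 1 its lowest, median and highest values were 2439, 3397 and 3703 over the 5 libraries of that window, and in Cycle 2 they were 2518, 3496 and 3932. These ranges overlapped although the starved values were 2.91-fold apart, and the change was 2.03 ± 0.18 in Cycle 1 and 0.52 ± 0.19 in Cycle 2. Slc2a1 was highest at 2.5 h in Cycle 1 and at 3 h in Cycle 2, and from 19 h to 27 h its medians were 1269 and 1335. Without the -1 h library of Cycle 1 its early change was 0.99, just under the threshold.

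Slc2a3, a high-affinity glucose carrier, had starved values of 120.2 and 111 in Cycle 1 and of 194 and 204 in Cycle 2. From 19 h to 27 h it had 65.9, 81.9 and 97.9 in Cycle 1 and 65.2, 77.6 and 83.1 in Cycle 2. Its change over both Cycles was -0.94 ± 0.14 (adjusted p = 9.0e-07), short of 2-fold, and in Cycle 2 alone it fell by 1.38 ± 0.20. Slc16a1, a carrier that works in both directions, had its largest change over both Cycles at 1 to 3 h (0.70 ± 0.16), which was not called, and in Cycle 1 alone it rose by 1.17 ± 0.21.

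Hk2 (mm9 chr6:82675019-82724448, minus strand) had the largest rise of all members. At 1 to 3 h it had 2036, 2283 and 3103 in Cycle 1 and 2092, 2711 and 3076 in Cycle 2, a change of 6.01-fold over both (log2 2.59 ± 0.23 SE, adjusted p = 2.3e-11). Both Cycles peaked at 1.5 h, at 15.7 times the starved mean in Cycle 1 and 3.39 times in Cycle 2. Hk2 was also called up at 4 to 10 h (1.16 ± 0.22), where the change was 2.33 ± 0.21 in Cycle 1 and -0.01 ± 0.17 in Cycle 2. That call was lost without either starved library of Cycle 1 (0.79 and 0.89). Hk1, the constitutive hexokinase, was not called in any window and stayed between -0.11 and 0.26.

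Pfkm, the muscle-type phosphofructokinase subunit, was the early enzyme that fell. Its starved values were 536 and 435 in Cycle 1 and 322 and 313 in Cycle 2, and from 4 h to 10 h it had 83.6, 139 and 190.2 in Cycle 1 and 102, 143 and 196 in Cycle 2. The starved libraries of each Cycle lay above all of its libraries in that window (log2 -1.51 ± 0.12 SE, adjusted p = 4.9e-13). By 19 h to 27 h the change was -0.58 ± 0.11 and was no longer called. Of the 4 skeletal muscle markers Myod1, Myog and Ttn also fell in every window, with Myog at -2.76 ± 0.49 from 4 h to 10 h, and their part in the fall of Pfkm was not tested. Pfkl, the liver-type subunit, fell by 1.74 ± 0.21 at 19 to 27 h in Cycle 2 alone, with a change of 0.22 ± 0.25 in Cycle 1. Gpi1 and Pfkp, the isomerase and the platelet-type subunit, were not called in any window over both Cycles.

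The enzymes that make and break fructose 2,6-bisphosphate, the strongest activator of phosphofructokinase, were not called over both Cycles. Pfkfb3 had 535, 663 and 773 at 1 to 3 h in Cycle 1 and 539, 696 and 777 in Cycle 2, near-equal ranges from starved values of 265 and 227 and of 728 and 638. It rose by 1.39 ± 0.18 in Cycle 1, and in Cycle 2 its change was -0.03 ± 0.16. Pfkfb4 had starved values of 93.2, 72.0, 76.3 and 79.1 over both Cycles. From 19 h to 27 h it ranged from 134 to 173 in Cycle 1 and from 119.9 to 175 in Cycle 2, all above the starved libraries, with a change of 0.94 ± 0.12 (adjusted p = 4.2e-08) that was short of 2-fold. Pfkfb2 had 118, 139.5, 129.7 and 128 in starved cells. At 1 to 3 h it had 44.1, 59.8 and 82.1 in Cycle 1 and 51.0, 81.0 and 93.5 in Cycle 2, below every starved library, with a change of -0.91 ± 0.17 that was also short of 2-fold.

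**Figure D3:**
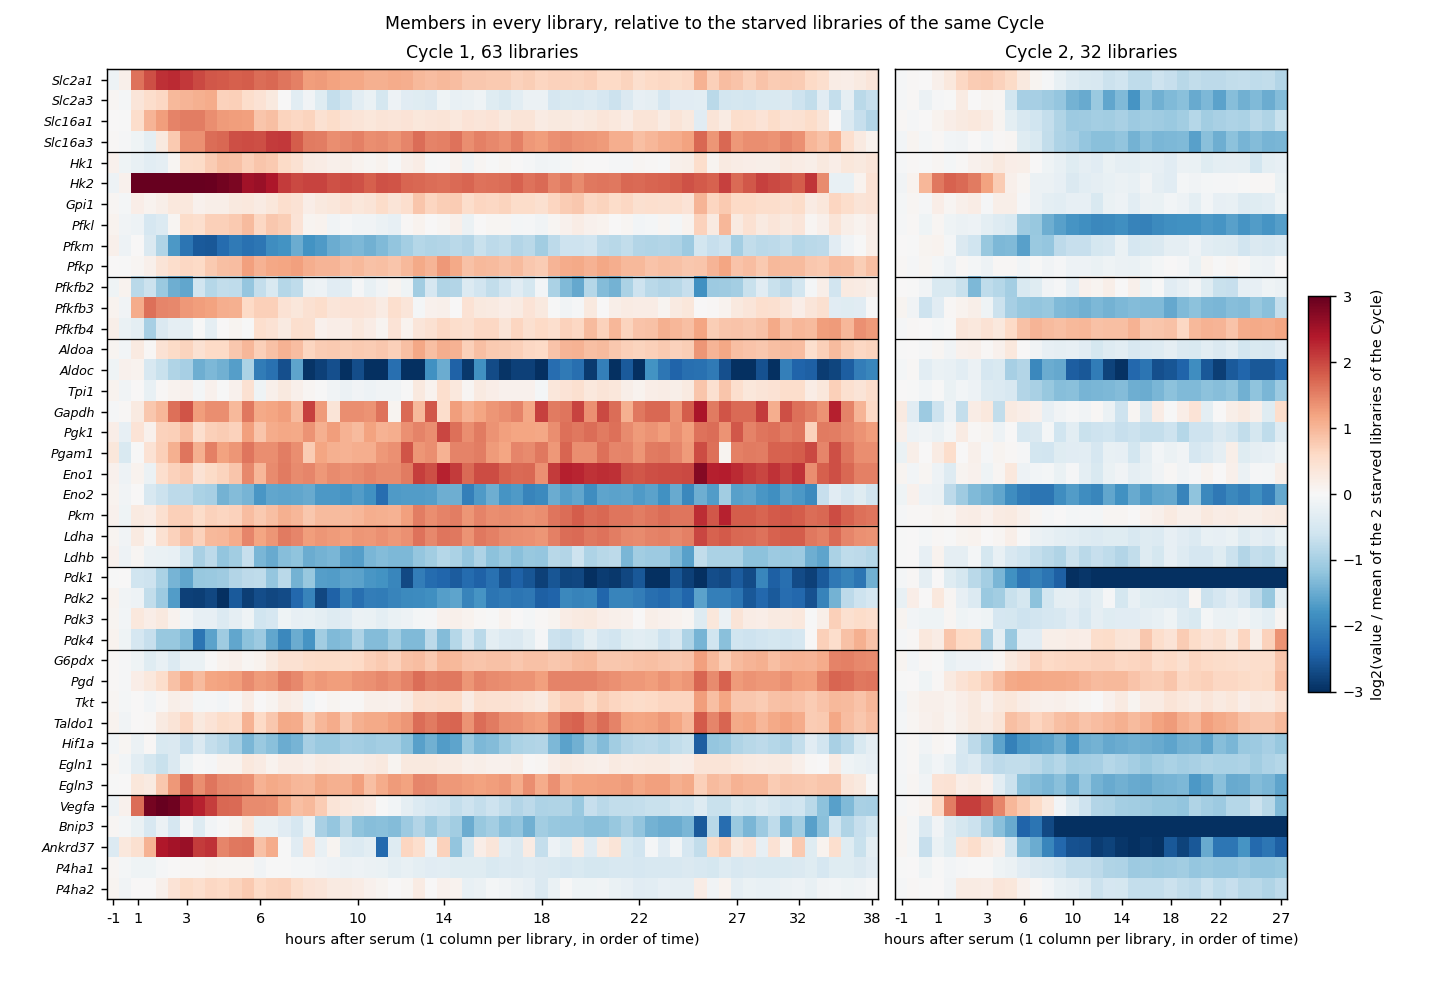
Every library of Cycle 1 (left) and Cycle 2 (right) in order of time (x axis, hours after serum) for the 40 members (rows, lines between roles). Colour is log2 of the value over the starved mean of that Cycle, with the scale ending at 3 in both directions. The rises of Ldha, Pkm and Eno1 fill Cycle 1 and are missing from Cycle 2, whereas Pdk1, Aldoc and Eno2 are below their starved level in most later libraries of both.

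Between aldolase and pyruvate kinase, Eno1, the ubiquitous enolase, was the member called up, at 19 to 27 h (log2 1.08 ± 0.30 SE, adjusted p = 0.0020). That call came from Cycle 1, where it went from 369.7 and 305 to 1217, 1528 and 1730.4. In Cycle 2 it started at 1074 and 969.9 and had 904, 995 and 1145, a change of 0.01 ± 0.12. The call was lost without either starved library of Cycle 1 (0.88 and 0.78). Gapdh was listed at 6.01 to 33.6 in every library, and Gapdh, Pgk1, Pgam1 and Eno1 have near-identical processed copies in the genome that can take or share their reads, so their levels are uncertain.

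Aldoc and Eno2, isozymes known best from neurons, fell in both Cycles. Aldoc had 60.1 and 72.0 in starved Cycle 1 and 77.3 and 82.4 in starved Cycle 2. From 11 h to 18 h it had 5.48, 7.82 and 23.6 in Cycle 1 and 10.3, 13.6 and 18.7 in Cycle 2, a change of 0.163-fold (log2 -2.62 ± 0.22 SE, adjusted p = 5.7e-12). No library of that window reached a starved level. Eno2 fell by 1.70 ± 0.15 at 4 to 10 h, by 1.72 ± 0.15 at 11 to 18 h and by 1.74 ± 0.15 at 19 to 27 h, from 407 and 349 in Cycle 1 and 620.0 and 740.0 in Cycle 2. The 3 neural markers were low in all libraries, and their part in these falls was not tested. Aldoa, Tpi1, Gapdh, Pgk1, Pgam1 and Pkm were not called in any window over both Cycles.

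Of the lactate dehydrogenase subunits, Ldha was not called over both Cycles, with a change of 0.66 ± 0.26 at 19 to 27 h. Ldhb, the heart-type subunit, had 368 and 304 in starved Cycle 1 and 217 and 223 in starved Cycle 2. At 4 to 10 h it had 107, 130.5 and 195 in Cycle 1 and 117, 141 and 189 in Cycle 2, below every starved library of the same Cycle, with a change of -0.95 ± 0.12 (adjusted p = 6.5e-08) that was short of 2-fold.

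Pdk1, the hypoxia-induced pyruvate dehydrogenase kinase (mm9 chr2:71711281-71741915, plus strand), had the largest fall of all members. From 283 and 292 in starved Cycle 1 and 667 and 711 in starved Cycle 2, it reached 31.1, 42.4 and 51.2 in Cycle 1 and 41.5, 47.5 and 59.5 in Cycle 2 from 19 h to 27 h. This was 0.103 of the starved level (log2 -3.28 ± 0.25 SE, adjusted p = 2.9e-13), with -2.75 ± 0.25 in Cycle 1 and -3.81 ± 0.28 in Cycle 2. It was also called at 4 to 10 h (-1.64 ± 0.25) and at 11 to 18 h (-2.87 ± 0.25). The end points of the Cycles overlapped although their starting points were 2.39-fold apart.

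Pdk2 fell over both Cycles in the last 3 windows, by 1.53 ± 0.22, 1.16 ± 0.22 and 1.28 ± 0.22. In Cycle 1 it fell by 2.43 ± 0.34 at 4 to 10 h, whereas in Cycle 2 no window was called and the change at 4 to 10 h was -0.63 ± 0.26. The call at 11 to 18 h was lost without the -1 h or the 0 h library of Cycle 1 (-0.88 and -0.95), and that at 19 to 27 h without the former (-0.99). Pdk4 was not called over both Cycles, and Pdk3 stayed within -0.40 and 0.04 on the log2 scale. Pdk3 had 416, 373, 498 and 443 in starved cells, and 370.0, 457 and 492 at 1 to 3 h in Cycle 1 and 428, 431 and 489 in Cycle 2.

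Of the pentose phosphate enzymes, Taldo1 and Pgd were called over both Cycles. Taldo1, the transaldolase of the non-oxidative branch, had 756 and 652 in starved Cycle 1 and 735 and 803 in starved Cycle 2. From 11 h to 18 h it had 1546, 1809.8 and 2319 in Cycle 1 and 1392, 1565 and 1849 in Cycle 2, a rise of 2.35-fold (log2 1.23 ± 0.12 SE, adjusted p = 1.1e-10). All 16 libraries lay above all 4 starved libraries. At 19 to 27 h it was still up by 1.20 ± 0.12, and it was called in each Cycle alone (1.40 ± 0.20 and 1.01 ± 0.12).

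Pgd, the NADPH-yielding dehydrogenase after glucose 6-phosphate dehydrogenase, rose by 1.20 ± 0.12 at 4 to 10 h, by 1.16 ± 0.12 at 11 to 18 h and by 1.03 ± 0.12 at 19 to 27 h. In Cycle 2 the change in the last window was 0.65 ± 0.11 and was short of 2-fold, and the call in that window was lost without either starved library of Cycle 1 (0.97 and 0.94). G6pdx, the first enzyme of the path, had 606, 571, 649.6 and 578 in starved cells and 445, 502 and 542 at 1 to 3 h in Cycle 1, with 529, 549 and 611 in Cycle 2. From 11 h to 18 h it had 1008, 1076 and 1169 in Cycle 1 and 885, 957 and 987 in Cycle 2, a change of 0.75 ± 0.09 (adjusted p = 7.5e-09). Tkt, the transketolase, had a change of 0.53 ± 0.11 at 19 to 27 h, and neither it nor G6pdx reached 2-fold. From 19 h to 27 h all 4 were lower in Cycle 2 than in Cycle 1 at an adjusted p under 0.05 in limma, by less than 2-fold. Pgd was lower by a log2 of -0.57 ± 0.08 SE (adjusted p = 3.9e-07) and Tkt by -0.43 ± 0.06 SE (adjusted p = 2.4e-07), and for these 2 genes the ranges of the Cycles did not overlap.

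Hif1a fell in both Cycles. At 4 to 10 h it had 1472, 2017 and 2498 in Cycle 1 and 2136, 2791 and 3193 in Cycle 2, below every starved library of either Cycle, a change of 0.386-fold (log2 -1.37 ± 0.13 SE, adjusted p = 6.1e-11). It was called at 11 to 18 h (-1.35 ± 0.13) and 19 to 27 h (-1.15 ± 0.13) as well. These are levels of the transcript, whereas oxygen acts on the protein. Egln3 had starved values of 88.7 and 90.3 in Cycle 1 and of 368 and 398 in Cycle 2. At 1 to 3 h it had 108, 157 and 297 in Cycle 1 and 418, 454 and 514 in Cycle 2. Its change over both Cycles was 0.58 ± 0.38 and was not called. Egln1, the main oxygen sensor of the family, was not called in any window, although in Cycle 2 its change was -0.94 ± 0.10 at 19 to 27 h.

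Vegfa, the secreted growth factor of blood vessels (mm9 chr17:46153942-46169326, minus strand), rose at 1 to 3 h by 4.39-fold (log2 2.13 ± 0.13 SE, adjusted p = 1.1e-14). From 1027 and 1249 in starved Cycle 1 it reached 3640.2, 8353 and 9728, and from 1709.7 and 1819 in starved Cycle 2 it reached 2729, 6443 and 7480.5. All 10 libraries of the window lay above the 4 starved ones, and the change was called in each Cycle alone (2.63 ± 0.35 and 1.64 ± 0.34). From 19 h to 27 h its change was -0.82 ± 0.13, short of 2-fold.

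Bnip3 fell over both Cycles at 4 to 10 h (-1.41 ± 0.40), 11 to 18 h (-2.44 ± 0.40) and 19 to 27 h (-2.49 ± 0.39). The call at 4 to 10 h was lost without Cycle 2, with -0.43 ± 0.28 in Cycle 1 against -2.38 ± 0.35 in Cycle 2. The last window held 22.9, 49.7 and 62.7 in Cycle 1 and 32.1, 50.2 and 60.7 in Cycle 2, near-equal ranges reached by a change of -1.29 ± 0.27 in Cycle 1 and -3.70 ± 0.35 in Cycle 2. Ankrd37 was called down at 11 to 18 h (-1.52 ± 0.36) and 19 to 27 h (-1.04 ± 0.35), where the changes were -2.90 ± 0.48 and -2.12 ± 0.47 in Cycle 2 and -0.14 ± 0.59 and 0.03 ± 0.59 in Cycle 1. The later call was lost without either starved library of Cycle 2 (-0.67 and -0.71), with TMM (-0.95) and with log2(value + 8) (-0.82). At 1 to 3 h it had 19.5, 73.1 and 84.2 in Cycle 1 and 45.8, 70.4 and 85.0 in Cycle 2, and in Cycle 1 alone it rose by 1.78 ± 0.63. P4ha1 and P4ha2, the collagen prolyl hydroxylase subunits, were not called in any window over both Cycles, and in Cycle 2 alone P4ha1 fell by 1.14 ± 0.11 at 19 to 27 h.

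Isozyme ratios within a library depend little on its scaling, except for low genes such as Aldoc, because 1 was added to each value. For 11 pairs the log2 ratio in each window was compared with starved cells by an exact two-sided permutation test within the Cycle, with Benjamini-Hochberg adjustment over 44 tests. Of these, 34 had an adjusted p under 0.05, and in 32 of the 34 both Cycles moved the same way. The permutations treat the hours of a window as separate samples, and the smallest raw p they could give ran from 0.0023 at 1 to 3 h to 0.00033 at 19 to 27 h.

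The ubiquitous enolase gained on the neuronal one in both Cycles. At 19 to 27 h the ratio of Eno1 to Eno2 was 7.08 times that of starved cells (log2 shift 2.82, exact permutation adjusted p = 0.0018), by 3.80 in Cycle 1 and 1.85 in Cycle 2. The ratio of Aldoa to Aldoc shifted by 2.85 at 11 to 18 h (exact permutation adjusted p = 0.0018), with 3.65 and 2.04 in the Cycles. Pfkp gained on Pfkm most at 4 to 10 h, by 1.99 (2.87 and 1.10), and Ldha on Ldhb at 4 to 10 h by 1.51 (2.52 and 0.51). The ratio of Pdk1 to Pdk4 fell by 3.25 at 19 to 27 h, to 0.105 of its starved value, with -2.11 in Cycle 1 and -4.40 in Cycle 2.

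Hk2 gained on Hk1 by 2.57 at 1 to 3 h (3.64 and 1.50), and at 4 to 10 h the shift was 1.81 in Cycle 1, with -0.0037 in Cycle 2. Slc2a1 gained on Slc2a3 in all 4 windows, by 0.89 to 1.18. Pfkfb3 lost to Pfkfb4 at 11 to 18 h (-1.23) and 19 to 27 h (-1.46), and P4ha1 lost to P4ha2 in all windows by less than 2-fold (-0.51 at most). Egln1 lost to Egln3 at 1 to 3 h (-0.99), and the 3 later windows were not called. The ratio of Slc16a1 to Slc16a3 shifted by 0.52 at 1 to 3 h and by -0.50 at 4 to 10 h (-0.91 and -0.09 in the Cycles). At 11 to 18 h it shifted by -0.43, where the Cycles moved opposite ways (-1.09 and 0.23). All called shifts of this pair were lost when libraries were permuted without regard to Cycle.

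**Figure D4:**
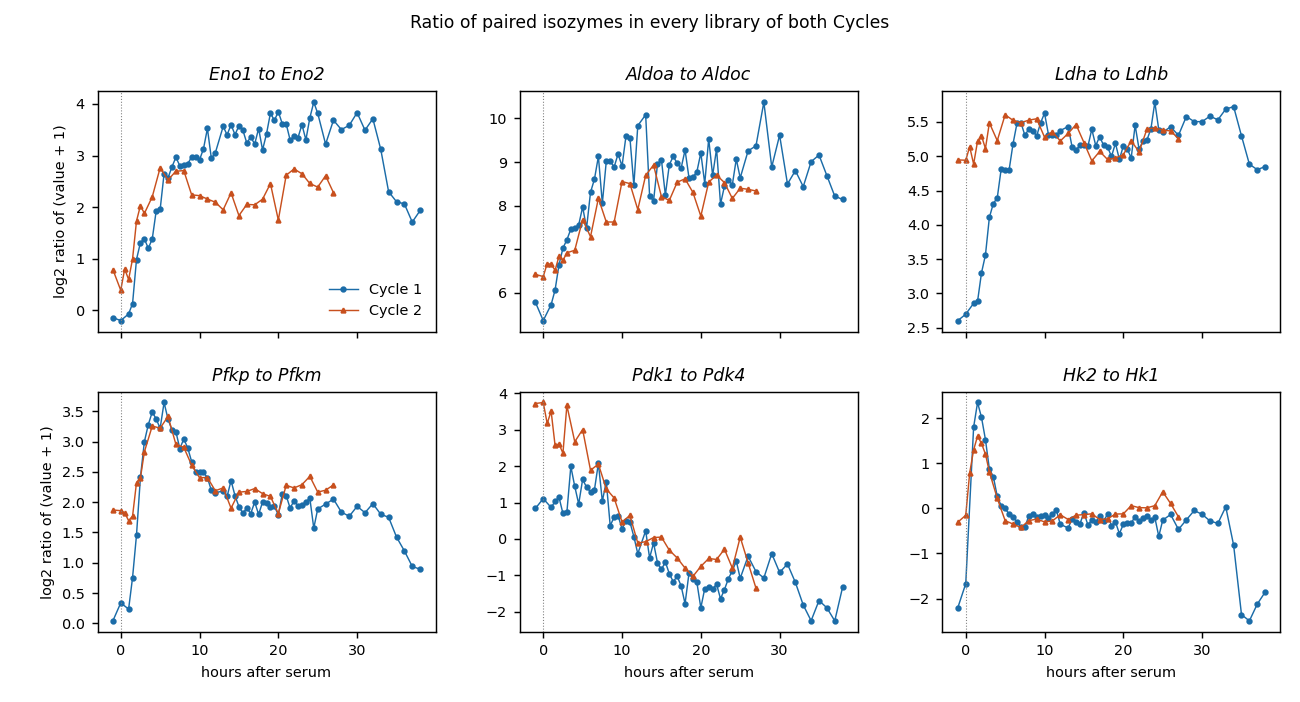
log2 ratio of (value + 1) of 6 isozyme pairs (y axis) against hours after serum (x axis) in every library of Cycle 1 (circles) and Cycle 2 (triangles), with a dotted line at the addition of serum. Ldha to Ldhb and Hk2 to Hk1 start apart and run together later, while Eno1 to Eno2 rises in both and ends lower in Cycle 2.

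After 27 h there were libraries of Cycle 1 alone, 1 per hour, so the values are given without a test. From 28 h to 33 h Hk2 had 696, 768 and 869.8 as its lowest, median and highest values. It was 525.7 at 34 h, 170.4 at 35 h and 168.7 at 36 h, near the starved values of 179 and 217. Slc16a1 had 908, 951 and 1007 from 28 h to 33 h and 373, 506 and 886 from 34 h to 38 h, and Slc16a3 went from 594, 781 and 825 to 321, 426 and 631. In the opposite direction Pdk4 went from 94.8, 99.7 and 147 to 212, 266 and 306, above its starved values, and Eno2 from 101, 113 and 126 to 236, 267 and 299.7. Pdk2 had 33.7, 37.9 and 42.3 and then 51.5, 120.0 and 145, and G6pdx 1103, 1191 and 1224 and then 1267, 1593 and 1677. The 24.5 h library of Cycle 1 stood apart from its neighbours, with 739 for Hif1a between 2575 at 24 h and 1845 at 25 h, and it was not part of any test because Cycle 2 has no library at that hour.

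Other genes of these pathways were counted from lists of their own. Of 25 measured genes of glycogen and further glycolysis, 2 rose and 4 fell at 1 to 3 h (5.30% and 11.8% of all genes), and 0 rose and 7 fell at 19 to 27 h (6.66% and 18.7%). The largest rise was that of Bpgm, the maker of 2,3-bisphosphoglycerate (1.81 ± 0.14 at 1 to 3 h), and the largest fall that of Txnip, an inhibitor of glucose uptake (-3.07 ± 0.21 at 1 to 3 h). Of 9 genes of pyruvate import and oxidation 1 fell in each window and none rose (all genes, 11.8% to 18.7% and 5.30% to 7.28%), with Pdp1, the phosphatase that opposes the kinases, at -1.95 ± 0.17 from 11 h to 18 h. Of 6 further pentose phosphate genes, Prps2 fell at 1 to 3 h (-1.40 ± 0.13) and at 4 to 10 h.

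Of 30 further genes of the hypoxia pathway, 4 rose and 1 fell at 1 to 3 h (5.30% and 11.8% of all genes). At 4 to 10 h 3 rose and 6 fell (7.28% and 17.9%), at 11 to 18 h 3 rose and 12 fell (6.81% and 16.8%), and at 19 to 27 h 3 rose and 13 fell (6.66% and 18.7%). The largest fall was that of Hif3a, a hypoxia-inducible factor subunit that can restrain the others (-4.56 ± 0.48 at 19 to 27 h). In starved cells 8 of the 30 were higher in Cycle 2 (4.22% of all genes) and 1, Hif3a, was lower (5.55%). Those higher included Car9, a carbonic anhydrase used as a hypoxia marker, with 43.6 and 32.8 in Cycle 1 against 101 and 88.2 in Cycle 2, and Ak4, a mitochondrial adenylate kinase, with 123 and 116 against 478 and 430.4.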

How the data were processed

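Poly(A) RNA of 96 libraries, 64 of Cycle 1 and 32 of Cycle 2, was sequenced with single-end reads of 50 bases. The authors demultiplexed with CASAVA, aligned to mm9 with STAR and counted exon reads with HOMER on both strands, so reads of antisense genes cannot be told apart; versions are not given in the sources used here. The deposited values are a normalised signal, scaled by the authors to like totals (8420657 to 8916718 per library). Among low nonzero values, to which the size of 1 read was fitted, 94.2% to 96.2% per library were whole multiples of it, within 0.1 read. Higher values were not checked in this way. Of the libraries 95 were used here. The 12.5 h library of Cycle 1 was not used, because 1 column of the table, also not used, gives that hour without naming a Cycle.

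Each hour was 1 group, and limma 3.58.1 (R 4.3.3) was fitted to log2(value + 1) of all 15895 genes in 62 libraries without a filter on low values, with the Cycle as a replicate block. The averages of the hours in the windows 1 to 3, 4 to 10, 11 to 18 and 19 to 27 h were tested against the 4 starved libraries. A change was called at a Benjamini-Hochberg adjusted p under 0.05 and at least 2-fold. Cycle 1 libraries deviated from the mean of their hour in a like way at different hours (median r 0.475 over 406 pairs of hours, 90.6% over 0.1). This reflects a difference between the Cycles shared by many hours, and the block was part of the design. Nothing says that libraries of a Cycle are separate cultures, so p-values measure the spread between these libraries, and neighbouring hours are not independent. The single-Cycle, between-Cycle and interaction values came from limma with 1 group per window and Cycle, so movement within windows is part of their error. The last 2 comparisons were added after the values were seen. On simulated data with 200 changed genes, all 200 were recovered in each window with 2 to 5 false calls. The simulated libraries were independent, without a difference between the Cycles, and genes of low mean were not changed. Because the measured Cycles differed, these figures do not give the rate of false calls in the measured data.

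The members and gene lists were chosen with earlier results of these data known. Every member was accounted for by its calls, and in each role the members with the highest and the lowest change in any window were given in full. Called genes of the other lists were counted, naming those with the largest rise and fall except for 1 gene that is not reported here, and Car9 and Ak4 were named after their values were seen. Alternatives were a pseudocount of 8, a mean value of at least 10, TMM and upper-quartile rescaling, 0 h as the only baseline, windows as groups, no replicate block, edgeR 4.0.16 quasi-likelihood on the recovered reads, and leaving out each starved library or Cycle. edgeR called 2366, 4000, 3880 and 4237 genes in the 4 windows, and limma 2713, 3996, 3751 and 4034.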

Additional observations from a re-analysis of the deposited data

Results flagged for a closer look

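The change from starved cells to a window after serum differed between the Cycles for 3 members at 1 to 3 h (0.686% of all genes). It differed for 16 at 4 to 10 h (5.48%), 23 at 11 to 18 h (8.90%) and 22 at 19 to 27 h (9.69%). The test was limma's interaction term, which is not independent of the starved difference between the Cycles. The values below are the change in Cycle 2 minus that in Cycle 1 at 19 to 27 h, on the log2 scale, and all share the same starved libraries.

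Among the transporters the difference was -1.47 for Slc2a1, -1.24 for Slc16a1 and -2.63 for Slc16a3. Among the early enzymes it was -1.79 for Hk2, -1.95 for Pfkl, -1.04 for Pfkp and -1.37 for Pfkfb3. From aldolase to pyruvate kinase it was -1.30 for Aldoa, -1.66 for Tpi1, -1.37 for Gapdh, -2.12 for Pgk1, -1.59 for Pgam1, -2.15 for Eno1 and -1.54 for Pkm. It was -1.91 for Ldha. The kinases of pyruvate dehydrogenase split, with -1.06 for Pdk1 against 1.59 for Pdk2 and 1.23 for Pdk4. Among the hypoxia genes it was -1.23 for Egln1, -2.55 for Egln3, -2.40 for Bnip3 and -2.15 for Ankrd37. The pentose phosphate enzymes were not among them, the nearest being Pgd at -0.77.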

How the results depend on the processing

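Counts of changed members in the 4 windows were 3, 9, 9 and 10. Without the replicate block they were also 3, 9, 9 and 10, and the block changed no call. Without a minimum fold they were 14, 24, 27 and 27, against 53.4%, 63.9%, 62.8% and 66.7% of all genes. Leaving out 1 starved library or 1 Cycle gave 2 to 11, 8 to 18, 9 to 18 and 9 to 18, the highest being those without Cycle 2. Without the -1 h library of Cycle 2, 5 members were called at 1 to 3 h. edgeR on the recovered reads gave 3, 9, 10 and 12. With log2(value + 8) the count of members differing between Cycles at 4 to 10 h went from 1 to 0.

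Leaving out Cycle 1 turned Hk2 at 4 to 10 h to -0.0063, against 2.33 without Cycle 2. It turned the Hk2 to Hk1 ratio there to -0.0037, against 1.81, and Slc16a1 to Slc16a3 at 11 to 18 h to 0.23, against -1.09. Ankrd37 at 19 to 27 h was 0.0323 without Cycle 2, against -2.12 without Cycle 1. The cause was not tested. Of all single results under all alternatives, 770 kept direction and side of the threshold, 60 kept the direction alone and 4 turned. The number of ratios called was 34, and it was 30 when libraries were permuted without regard to Cycle, 25 without Cycle 1 and 29 without Cycle 2. Low values limit Gapdh (6.01 to 33.6), Ankrd37 (1.55 to 85.0) and Aldoc (3.35 to 82.4).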
